A study of Mus musculus with 2 samples.

Results

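The genes described here are 8 early-embryo genes of the mouse, namely Dppa2, Dppa3, Dppa4, Dppa5a, Zscan4c, Zscan4d, Zscan4f and Zscan10. They were chosen by symbol, and all 8 were found among the 55421 genes of the count table through the Ensembl identifiers of GENCODE release M21. Levels come from polyadenylated RNA of mouse embryonic stem (ES) cells of genotype AGO1 knockout, made from E14 cells of 129/Ola background. The cells grew on gelatin in serum medium with leukaemia inhibitory factor, the cytokine that holds mouse ES cells in self-renewal. The labels give 1 group of 2 libraries, numbered KO1 and KO2 in their titles, and name no clone or culture for either. Their spread may therefore be technical or lie between clones or cultures, which was not tested. Ago1 itself was 3.18-fold higher in KO1, as given below. A wild-type library was not used here, so every difference below is between 2 libraries of the same genotype.

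The Dppa genes were named for their association with developmental pluripotency. Dppa2 and Dppa4 encode SAP-domain proteins that bind chromatin together and prepare early-embryo genes for activation. Dppa3, also called Stella, encodes a maternal factor that acts on DNA methylation in the egg and early embryo, and Dppa5a encodes a small RNA-binding protein of the KH-domain type. The Zscan4 genes encode SCAN-domain zinc-finger proteins of the two-cell embryo, linked to telomere maintenance and switched on only in passing in a small fraction of ES cells. Zscan10 is a distinct SCAN-domain zinc-finger gene whose protein works with the core pluripotency factors.

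The Zscan4 copies are shown first by sequence, because their likeness decides how far their levels can be told apart. The 157 bases that run up to and include the TATA box (TATAAAA, in capitals) are given for the 4 copies with an entry in the RefSeq promoter table (GRCm38.p6), on the strand of each gene. Their positions are chr7:11005541-11005697 on the plus strand for Zscan4c, chr7:11166207-11166363 on the minus strand for Zscan4d, chr7:11397734-11397890 on the plus strand for Zscan4f and chr7:10905075-10905231 on the minus strand for Zscan4b.
Zscan4c: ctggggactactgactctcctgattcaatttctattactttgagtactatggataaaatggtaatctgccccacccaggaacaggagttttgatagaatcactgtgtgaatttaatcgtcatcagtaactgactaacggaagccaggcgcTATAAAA
Zscan4d: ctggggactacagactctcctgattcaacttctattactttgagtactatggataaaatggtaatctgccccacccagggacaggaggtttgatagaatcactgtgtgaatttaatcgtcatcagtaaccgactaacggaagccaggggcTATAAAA
Zscan4f: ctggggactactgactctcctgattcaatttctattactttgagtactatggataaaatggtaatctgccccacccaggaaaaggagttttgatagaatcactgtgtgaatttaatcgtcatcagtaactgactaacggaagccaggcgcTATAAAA
Zscan4b: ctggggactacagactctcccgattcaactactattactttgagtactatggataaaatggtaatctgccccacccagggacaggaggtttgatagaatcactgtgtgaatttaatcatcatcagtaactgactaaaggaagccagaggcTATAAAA
Zscan4c and Zscan4f differed at 1 of these 157 bases (99.4% identity), Zscan4c and Zscan4d at 6 (96.2%), and Zscan4b and Zscan4f at 11 (93.0%). The first base of the TATA box lay 31 bases before the annotated start in Zscan4b and Zscan4f, 54 bases before it in Zscan4c and 65 in Zscan4d. TATAAAA, searched on both strands in the 250 bases before the start, was found in 4.98% of 32851 promoters. The 4 windows above were aligned on it, and the Zscan10 promoter did not hold it.

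The coding sequences were as close. Zscan4c, Zscan4d and Zscan4f each had 1518 coding bases before the stop codon, and these aligned without gaps. Zscan4c and Zscan4f differed at 6 of the 1518 bases (99.6% identity), whereas Zscan4d differed at 35 from Zscan4c and at 35 from Zscan4f (97.7%). Zscan4-ps2, which is named a pseudogene but annotated as protein coding, was closer still to Zscan4f, with 4 differing bases. Over all 3 members 38 positions differed, and the longest run without a difference was 233 bases, from coding base 406 to 638. The 60-base coding window with the most differences, from coding base 1032 to 1091 of each copy, is printed from the GENCODE M21 transcripts with the 6 differing positions in capitals. It lies in the last exon, at chr7:11009507-11009566 in Zscan4c, chr7:11162351-11162410 in Zscan4d and chr7:11401700-11401759 in Zscan4f (GRCm38), on the strands given above.
Zscan4c: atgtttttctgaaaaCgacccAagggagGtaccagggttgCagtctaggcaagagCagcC
Zscan4d: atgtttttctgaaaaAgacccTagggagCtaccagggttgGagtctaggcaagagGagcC
Zscan4f: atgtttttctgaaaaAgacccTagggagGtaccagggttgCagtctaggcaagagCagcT
A coding read that covers none of the 38 positions is the same for all 3 genes. Outside the coding part the transcripts also differ, and over whole transcripts Zscan4c shared 1454 of its 2227 runs of 50 bases with Zscan4f and 815 with Zscan4d. The sources used here do not give the rule by which reads matching several copies were counted, so the values of single Zscan4 copies are uncertain.

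The libraries held 57048330 (KO1) and 54408708 (KO2) counts, and 13347 genes reached 1 CPM (a count scaled to library size) in both. Intervals below are exact 95% intervals of the count alone. Reads copied by PCR are not independent molecules, so true errors are wider than this counting error. The intervals also leave out the variation between the libraries beyond counting. Its common coefficient of variation (edgeR) was 0.193 over the 13347 genes, with no correction for GC content. An interval of a ratio that leaves out 1 therefore does not show a difference beyond this spread. Ago1 itself had 1497 counts in KO1 and 452 in KO2, or 26.4 and 8.27 CPM. It was 3.18-fold higher in KO1, past the 2-fold rule used below, so the libraries of this genotype differed in the targeted gene. The log2 ratio of Ago1 (KO2 over KO1) was -1.67 before and -1.74 (-1.89 to -1.59) after the correction for GC content described below. Counts per gene do not show which part of a transcript they came from, so they do not check the deletion. All 7 ES cell markers listed were detected, from Pou5f1 at 434 ± 122 and Zfp42 at 382 ± 2.71 to Utf1 at 107 ± 74.9 and Fgf4 at 68.7 ± 4.19 CPM per kb of exons (SD, n = 2). Utf1, a chromatin factor gene, was the 1 gene of all lists past the 2-fold rule, at 2.95-fold higher in KO2 (2.85 to 3.07), and its log2 ratio was 1.56 before and 0.59 after the correction for GC content. Over all 15619 genes with 50 or more counts, 1.06% were past that rule (0.98% higher and 0.0768% lower in KO2). Of 7 fibroblast markers 1 was detected, Thy1, while Col1a1 had 23 and 54 counts and Lum and Postn had 0. Of 6 primitive endoderm markers 5 were detected, from Gata4 (659 and 816 counts) and Sox7 (375 and 437) to Sox17 (128 and 172) and Foxa2 (39 and 58). Of 6 trophectoderm markers 4 were detected, with Krt8 at 804 and 1171 counts, Cdx2 at 16 and 21 and Elf5 at 8 and 1. Of 6 markers of epiblast and lineage exit 3 were detected, with Otx2 at 817 and 832 counts, Nes at 1087 and 1128, Pax6 at 53 and 70 and Fgf5 at 12 and 20. The ratio of the libraries moved with transcript GC content, from a median log2 ratio (KO2 over KO1) of -0.37 over 2012 genes at or below 42% GC to 0.86 over 588 genes above 60%.

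Of the 8 genes, 7 were detected, which here means 1 CPM or more in KO1 and in KO2. Zscan4f was the exception, at 1.32 CPM in KO1 and 0.915 CPM in KO2. By the same rule 12148 of the 21976 protein-coding genes of the table were detected. Levels between genes were compared as CPM per kb of exonic length, because a longer transcript gives more reads. On that scale the order was Dppa5a, Dppa4, Dppa2, Zscan10, Dppa3, Zscan4c, Zscan4d and Zscan4f. Only Zscan4c and Zscan4d had ranges over the 2 libraries that overlapped, so no order between them is given. The range from Dppa5a to Zscan4f ran from 2576 ± 191 to 0.571 ± 0.146 CPM per kb (SD, n = 2).

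**Figure D1:**
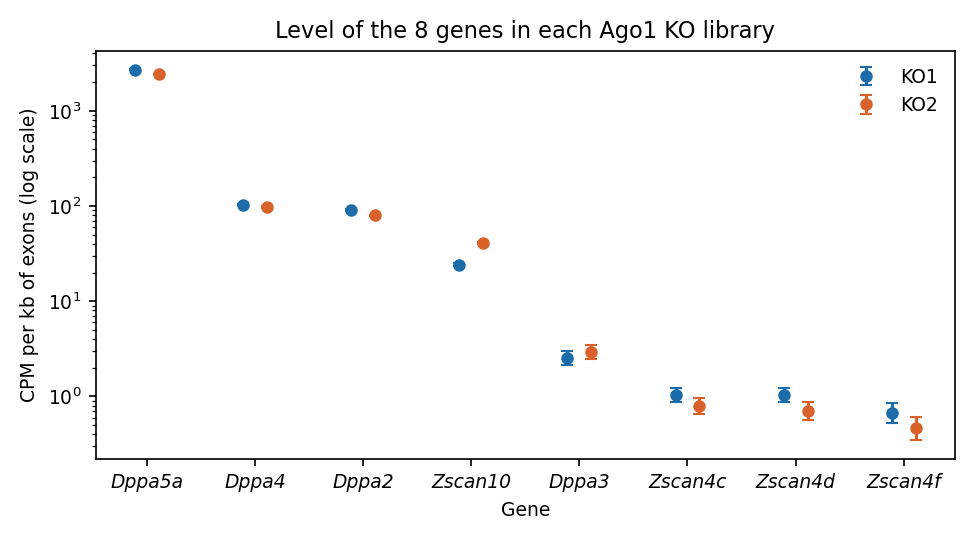
Level of the 8 genes in each library, as CPM per kb of exons on a log axis, with points for KO1 and KO2 and bars for the exact 95% Poisson interval of the count. Dppa5a stood at 2712 and 2441 CPM per kb, and the 3 Zscan4 members lay between 0.467 and 1.05 CPM per kb.

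Dppa5a was the most abundant of the 8, with 95355 counts in KO1 and 82544 in KO2. Scaled, KO1 was at 1678 CPM (1668 to 1689) and KO2 at 1511 CPM (1501 to 1521), so the intervals did not overlap. Per kb of exons Dppa5a ranked 5 among 21976 protein-coding genes of the table, and 34 by CPM. Its exonic length is 619 bases, the shortest of the 8. The 3 protein-coding genes nearest to it in log2 CPM per kb over both libraries were mt-Nd2, Hsp90ab1 and mt-Cytb, at distances of 0.366, 0.572 and 0.601, a likeness over 2 libraries only.

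Dppa5a (ENSMUSG00000060461) occupies bases 78367052 to 78368177 of chromosome 9, minus strand (GRCm38). Its nearest protein-coding neighbours differed from each other by a wide margin. Ooep, a gene of the same KH-domain family that is known from the egg, starts 7.93 kb away and was at 58.0 CPM per kb in KO1 and 49.6 in KO2. Gsta2, a glutathione transferase gene 11.3 kb away on the other side, had 3 counts in each library. Of the 6 listed genes of the KHDC1, DPPA5, ECAT1 and OOEP family 3 were detected, Dppa5a and Ooep among them. Khdc3, which acts with Ooep in a maternal complex of the egg, was at 7.80 and 7.02 CPM per kb, and Khdc1a, Khdc1b and Khdc1c had 0 counts in both libraries.

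Copies of Dppa5a took few counts. Dppa5b and Dppa5c, annotated as unprocessed pseudogenes on chromosome 9, had 4 and 2 counts (Dppa5b) and 0 and 2 counts (Dppa5c) in KO1 and KO2. They could not be told from each other, since every 50-base word of one was also in the other. The rule for reads matching several genes is not known, so low counts do not show how much RNA these copies make. A word here is any run of 50 bases of the longest transcript, and 61.4% of the 570 words of Dppa5a were in no other annotated gene. The 7 pseudogenes that shared a word with Dppa5a held 255 counts in KO1 and 270 in KO2, or 0.267% and 0.327% of the Dppa5a counts. Pigp, a gene of glycolipid anchor synthesis, shared 70 words with Dppa5a and had 560 and 453 counts.

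Dppa4 and Dppa2 lie side by side on the plus strand of chromosome 16, with 9.67 kb between them. Dppa4 (ENSMUSG00000058550, 48283733 to 48294237) had 9794 counts in KO1 and 8877 in KO2, or 172 CPM (169 to 176) and 162 CPM (159 to 166). Dppa2 (ENSMUSG00000072419, 48303908 to 48319723) had 12653 and 10648 counts, or 223 CPM (219 to 227) and 195 CPM (191 to 199). Per kb of exons Dppa4 was at 104 in KO1 and 97.8 in KO2, and Dppa2 at 91.0 and 79.6. Dppa4 was thus higher on this scale, by 1.14-fold in KO1 and 1.23-fold in KO2.

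The order of the pair depended on the length used. Dppa2 has an exonic length of 2447 bases of which 903 are coding, and Dppa4 one of 1662 bases of which 888 are coding. Per kb of coding length Dppa2 was higher in both libraries, at 247 against 194 in KO1 and 216 against 183 in KO2. Both genes stood among the better expressed protein-coding genes, Dppa4 at rank 407 and Dppa2 at rank 504 per kb of exons. The nearest other protein-coding genes were Gm5485, 79.7 kb beyond Dppa2, with 1 count in each library, and Nectin3, 1785 kb before Dppa4, at 5.40 and 4.13 CPM per kb.

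Processed pseudogenes of Dppa2 and Dppa4 also carried reads. Of the words of Dppa2, 70.9% were in no other gene, and its 7 pseudogenes held 158 counts in KO1 and 121 in KO2, 134 and 101 of them at Gm9788. For Dppa4 the share of words in no other gene was 64.1%, and its 2 pseudogenes held 147 and 137 counts, 132 and 127 of them at Gm14058. In each library these sums were 1.14% to 1.54% of the counts of the parent gene. Reads of the parent and of such copies cannot be told apart where the words are shared.

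Dppa3 was far lower than the other Dppa members. It had 129 counts in KO1 and 144 in KO2, or 2.27 CPM (1.90 to 2.70) and 2.64 CPM (2.22 to 3.10), and 2.55 and 2.95 CPM per kb. The intervals of the libraries overlapped. Dppa3 (ENSMUSG00000046323) lies on chromosome 6 from 122626410 to 122630272 on the plus strand, between Gdf3, a growth factor gene 16.3 kb away, and Nanog, 77.2 kb away. Both neighbours were far higher, Gdf3 at 25.8 and 30.2 CPM per kb and Nanog at 289 and 263. Dppa3-ps on chromosome X, which shared 17.2% of the words of Dppa3, had 0 counts in KO1 and 3 in KO2. Dppa1, the remaining gene of the name, had 0 counts in both libraries. A floor of 3 counts, 0.0528 CPM in KO1 and 0.0549 CPM in KO2, serves here only to mark counts near 0.

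Zscan10 was well expressed, and before any correction for GC content its libraries lay furthest apart of the 8. It had 3921 counts in KO1 and 6412 in KO2, or 69.0 CPM (66.9 to 71.2) and 117 CPM (115 to 120), and 24.2 and 41.1 CPM per kb. All of its 2649 words of 50 bases were in no other gene. Zscan10 (ENSMUSG00000023902) lies on chromosome 17 from 23600856 to 23611019 on the plus strand. The 3 protein-coding genes nearest to it in log2 CPM per kb over both libraries were Pfkl, Cad and Cpsf1, at distances of 0.0790, 0.0804 and 0.106. Their transcripts had a GC content of 56.4% to 57.4% beside 57.2% for Zscan10. Genes near it in both libraries share its ratio, which moved with GC content, so a like GC content follows in part from how they were picked.

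The Zscan4 members were the lowest of the 8 per kb of exons, whereas in CPM the ranges of Zscan4c and Zscan4d overlapped that of Dppa3. Zscan4c (ENSMUSG00000054272, chromosome 7, 11005745 to 11010547, plus strand) had 134 counts in KO1 and 99 in KO2, or 2.36 CPM (1.98 to 2.79) and 1.81 CPM (1.47 to 2.21). Zscan4d (ENSMUSG00000090714, 11161374 to 11166159, minus strand) had 135 and 88 counts, or 2.38 CPM (1.99 to 2.81) and 1.61 CPM (1.29 to 1.98). Zscan4f (ENSMUSG00000070828, 11397915 to 11402318, plus strand) had 75 and 50 counts, and its intervals were 1.04 to 1.65 CPM and 0.679 to 1.21 CPM. Each was lower in KO2, and only for Zscan4d did the intervals of the libraries not overlap. In bulk RNA, fewer cells with Zscan4 RNA and less of it per cell cannot be told apart.

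All 9 annotated Zscan4 copies had reads, over 820 kb of chromosome 7. Summed, they had 756 counts in KO1 and 560 in KO2, or 13.3 and 10.2 CPM. If reads matching several copies were left out of the counts, this sum is too low as well. Of this sum the 3 listed members held 344 and 237 counts. Zscan4a, annotated as an unprocessed pseudogene, had more counts than any listed copy, 140 and 106, and made up 18.5% of the cluster in KO1 and 18.9% in KO2. Zscan4-ps3 had 83 and 69 counts, Zscan4e 67 and 52, Zscan4-ps1 48 and 40, Zscan4-ps2 47 and 43, and Zscan4b 27 and 13. Every copy had a lower CPM in KO2 than in KO1, although Zscan4-ps1, Zscan4-ps2 and Zscan4-ps3 turned to log2 ratios of 0.07, 0.23 and 0.09 with the correction for GC content described below. The vomeronasal receptor genes Vmn1r71 and Vmn1r72 that flank the cluster, 39.9 kb before it and 50.4 kb after it, had 0 counts in both libraries.

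The copies differed in how much of their transcript is theirs alone. Of the words of Zscan4f 4.66% were in no other annotated gene, beside 8.43% for Zscan4e, 9.65% for Zscan4b, 14.5% for Zscan4c, 50.4% for Zscan4d and 51.6% for Zscan4-ps1. When CPM was divided by the number of such words in place of exonic length, the order of the 8 changed. Zscan4f and Zscan4c rose above Dppa3, which was at 3.52 and 4.09 CPM per kb. Zscan4f was then the highest of the 3 Zscan4 members, at 15.9 CPM per kb in KO1 and 11.0 in KO2, followed by Zscan4c at 7.33 and 5.63 and Zscan4d at 2.12 and 1.44. With words of 100 bases the order of these 3 was the same, with Zscan4f at 7.25 and 5.03, Zscan4c at 3.98 and 3.06 and Zscan4d at 1.55 and 1.05, and the range of Zscan4c overlapped that of Dppa3. This scale holds only if reads that match several copies were left out of the counts, and no source used here gives the read length. Which copy was the most abundant therefore could not be settled from these counts.

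**Figure D2:**
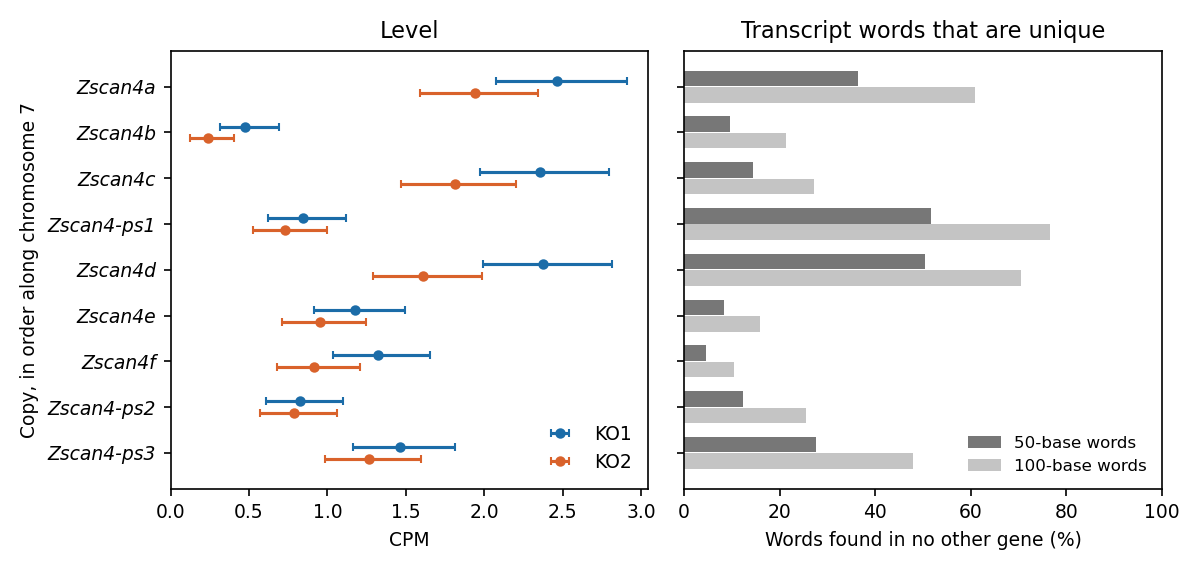
Left, CPM of each of the 9 Zscan4 copies in KO1 and KO2 with exact 95% Poisson intervals, in their order along chromosome 7; right, the share of 50-base and 100-base transcript words found in no other annotated gene. Zscan4d has more than 50% unique 50-base words, whereas Zscan4f has 4.66%, although both carry reads.

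Each gene's scaled count in KO2 was then divided by that in KO1. The rule of size asked for an entire 95% interval past 2-fold, and it was applied to the 15619 genes whose counts over both libraries reached 50. All 8 members had enough counts, and 0 of 8 met it, beside 1.06% of all genes (0.98% higher and 0.0768% lower in KO2). With the correction of the ratio for GC content 0 of 8 members met it, beside 0.244% of 15603 genes (0.16% higher and 0.0833% lower). No test between conditions is possible with 1 group, so no p-value is given.

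Before the GC correction Zscan10 had the ratio furthest from 1 among the 8, at 1.70-fold higher in KO2 (1.63 to 1.77). It was the only member whose whole interval lay beyond 1.5-fold, which held for 6.6% of the 15619 genes (6.4% higher and 0.205% lower in KO2). Its transcript GC content was 57.2%, and the 1380 genes with a GC content above 57% and up to 60% had a median log2 ratio of 0.65, with the central 90% from 0.13 to 1.14, beside 0.77 for Zscan10. With the GC correction Zscan10 was 1.16-fold higher in KO2 (1.11 to 1.20), and 0 members were beyond 1.5-fold. After that correction 0.833% of genes had a whole interval beyond 1.5-fold (0.602% higher and 0.231% lower). Zfp13, the zinc-finger gene 1.37 kb before Zscan10, had the same log2 ratio of 0.77 before the correction and 0.06 after it, and Mmp25, a protease gene 17.3 kb after it, had 0.04 and -0.22.

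Dppa5a, Dppa4 and Dppa2 differed little between the libraries, while the interval of Dppa3 was wider. KO2 over KO1 was 0.900-fold (0.892 to 0.909) for Dppa5a, 0.942-fold (0.916 to 0.970) for Dppa4 and 0.875-fold (0.853 to 0.898) for Dppa2, and 1.16-fold (0.909 to 1.48) for Dppa3. With the GC correction Dppa5a was at 0.902-fold (0.893 to 0.910) and Dppa4 at 0.959-fold (0.931 to 0.987). Dppa2, whose transcript has a GC content of 43.6%, went from below 1 to 1.04-fold (1.02 to 1.07), so it has no direction that holds under both scalings. Dppa3 was at 1.32-fold (1.03 to 1.68) after the correction, then the ratio furthest from 1 among the 8.

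The Zscan4 sum was lower in KO2 before the GC correction, and its interval held 1 after it. The sum of all 9 copies was 0.770-fold (0.689 to 0.860) in KO2, beside 0.935-fold (0.836 to 1.04) with the correction. Zscan4c was at 0.769-fold (0.586 to 1.00), Zscan4d at 0.679-fold (0.512 to 0.893) and Zscan4f at 0.696-fold (0.475 to 1.00). After the correction their intervals all held 1, with Zscan4c at 0.942-fold (0.718 to 1.23), Zscan4d at 0.834-fold (0.629 to 1.10) and Zscan4f at 0.812-fold (0.554 to 1.17). Over all 9 copies the corrected ratios ran from 0.597-fold for Zscan4b to 1.17-fold for Zscan4-ps2. The transcripts of these 3 genes had a GC content of 42.3% to 44.3%. Genes with a GC content above 42% and up to 45% had a median log2 ratio of -0.27, and 49.0% of all genes with enough counts had a ratio below 0.

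**Figure D3:**
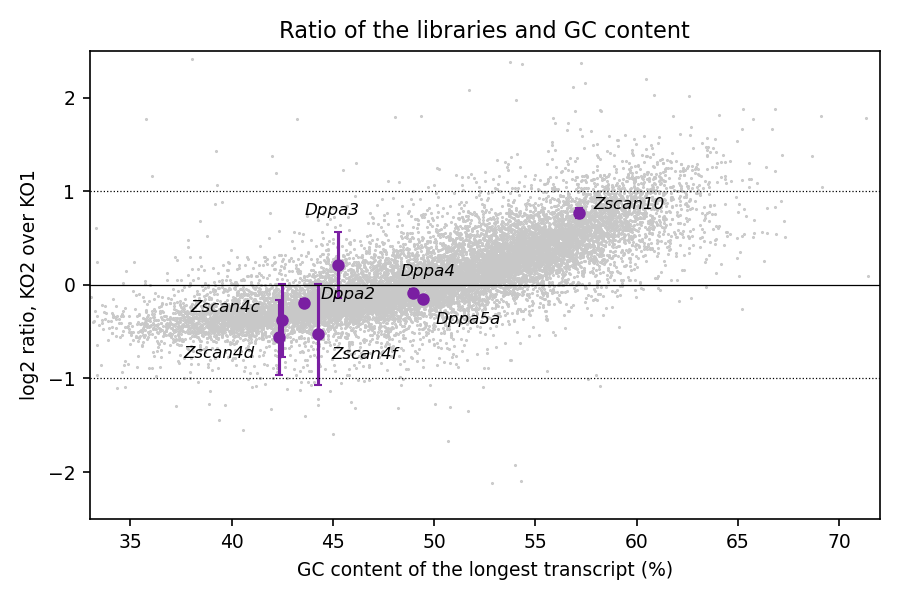
Log2 ratio of KO2 over KO1 against the GC content of the longest transcript, in grey for genes whose counts over both libraries reached 50 and in purple for the 8 members with exact 95% intervals; dotted lines mark 2-fold, and genes beyond the axes are not drawn. The grey cloud rises with GC content, and the 8 members lie within it.

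Around these genes, those of the two-cell-like state were read at low levels. Of 27 listed two-cell-like genes other than Zscan4, 3 were detected and 4 had 0 counts in both libraries. Their counts summed to 12.3 CPM in KO1 and 10.5 CPM in KO2, beside 13.3 and 10.2 CPM for the 9 Zscan4 copies. These sums cover different numbers of genes, are not scaled to length and depend on how reads of close copies were counted. Gm5662 was the highest, with 183 and 116 counts or 1.75 and 1.15 CPM per kb, followed by Gm8300 with 114 and 83 counts. Both belong to gene families with close copies, so they too are uncertain. Tdpoz2, Tdpoz5, Tcstv1 and Gm6763 had 0 counts. Of the 8 list members with enough counts 0 differed by the 2-fold rule, beside 1.06% of all genes. Their median log2 ratio was -0.12, beside 0.01 over all 15619 genes, and -0.01 beside -0.02 after the GC correction.

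The genes known to switch that state on and off were mostly well expressed. Among 6 activators, which include the members Dppa4, Dppa2 and Zscan4c, Dppa4 and Dppa2 led. Tbx3, a T-box factor, followed at 30.7 CPM per kb in KO1 and 31.2 in KO2. Nelfa, a subunit of a complex that pauses RNA polymerase, was at 14.0 and 17.4, and Zscan4c was low at 1.04 and 0.796. Duxf3, the Dux gene that drives the state, had 2 counts in KO1 and 3 in KO2, which is no more than the floor of 3 counts. All 23 listed repressors were detected. They ran from Trim28, a corepressor of retroelements, at 364 and 501 CPM per kb, and Ncl, encoding nucleolin, at 418 and 350, to Ehmt1, an H3K9 methyltransferase gene, at 11.2 and 13.5 and Smchd1, which keeps silenced chromosomes silent, at 5.46 and 4.22. Of the 23, 0 differed by the 2-fold rule, beside 1.06% of all genes, and their median log2 ratio was -0.08.

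**Figure D4:**
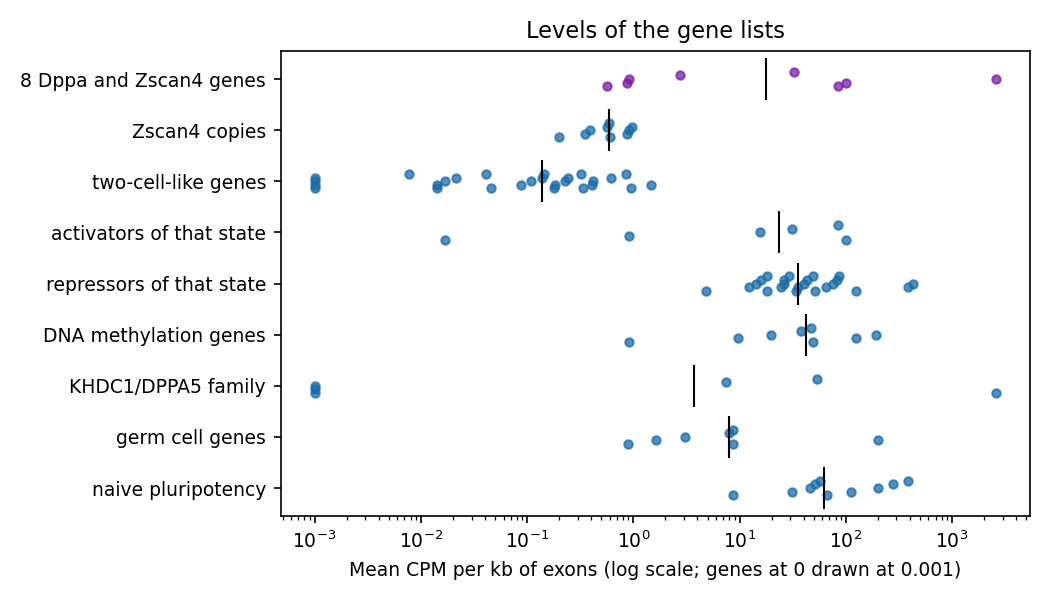
Mean CPM per kb of exons over both libraries for each gene of the listed groups, on a log axis with genes at 0 drawn at 0.001; black bars mark the median of each group and purple points the 8 members. The 27 two-cell-like genes have a median of 0.138 CPM per kb, beside 35.8 for the 23 repressors.

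Genes tied to the roles of the Dppa proteins were present at different levels. All 8 listed genes of DNA methylation and its removal were detected. Dnmt3l, a cofactor of de novo methylation, was at 179 CPM per kb in KO1 and 206 in KO2 and Uhrf1, the factor that DPPA3 displaces from chromatin, at 107 and 142, while Dnmt3a, a de novo methyltransferase gene, was at 8.76 and 10.8 and Tet3, the oxidase of the egg, at 0.812 and 1.02. Of 4 genes reported to need DPPA2 or DPPA4, Mael and Syce1, both of the germline, were at 24.8 and 20.8 and at 13.3 and 13.0 CPM per kb. The other two were near 0, Duxf3 as given above and the heart factor gene Nkx2-5 with 3 and 5 counts.

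Dppa3 also marks primordial germ cells, and 6 of 7 other listed germ cell genes were detected. Ifitm3, a membrane protein gene, was the highest at 174 CPM per kb in KO1 and 231 in KO2, ahead of Tfap2c, encoding the factor AP-2 gamma, at 7.71 and 9.58. The lowest were Prdm1, encoding BLIMP1, at 1.73 and 1.52, and the RNA-binding gene Nanos3 with 28 and 63 counts. Of 10 naive pluripotency genes 10 were detected, with a median of 62.2 CPM per kb over both libraries. Dppa5a lay above the highest of them, Zfp42, at 381 and 384 CPM per kb, and Dppa3 below the lowest, Prdm14, at 8.92 and 8.26. In the germ cell and naive lists 0 genes differed by the 2-fold rule, a count that says little beside a share of 1.06% over all genes.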

How the data were processed

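The authors deposited 1 table of read counts per Ensembl gene, not normalized, for 2 libraries. The submitters' processing notes name GRCm38, and the libraries are reverse-stranded per the labels. The sources used here do not give the aligner, counter or read length. Of 55421 identifiers, 55240 matched GENCODE release M21, which gave symbols, positions, lengths and transcripts. Counts were scaled with edgeR 4.0.16 (TMM) in R 4.3.3. Ratios have exact conditional binomial 95% intervals and 0.5 was added as prior count before taking log2. The GC correction was a loess of the log2 ratio on the GC content of the longest transcript (span 0.3, 13932 genes with 100 or more counts in all). With 1 group no quasi-likelihood test was made. On simulated data with counting noise only, the 2-fold rule recovered 89% of 200 genes changed 3-fold among 15603 and called 0 unchanged genes. With a GC slope added it called 2 unchanged genes and 38.8% of intervals held the true ratio, beside 0 genes and 95.3% after the GC correction. Apart from the changed genes, the simulated libraries differed by counting noise and this linear slope alone. The recovery of 89%, the counts of unchanged genes called and the 95.3% therefore do not carry over to the real libraries. Words of 50 and 100 bases were searched on both strands of all M21 transcripts. Promoter sequences came from RefSeq (GRCm38.p6).

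The libraries differed by more than counting noise (chi-square over degrees of freedom of 76.4, genes of 10 or more counts). Named genes were the members, all Dppa and Zscan4 genes, the 2 highest and 2 lowest per list, Duxf3, the nearest protein-coding genes and the 3 genes nearest in level to Dppa5a and Zscan10. Genes past the 2-fold rule in a list were named too. Gm6763, Tcstv1, Khdc3, Pigp and pseudogenes holding member words were named after their values were seen. Members and lists were chosen with earlier results of these data known. Alternatives included DESeq2 1.42.0 size factors. Scripts used scipy 1.17.1 and numpy 2.4.6 under python 3.11.15.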

Additional observations from a re-analysis of the deposited data

How the results depend on the processing

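No paired analysis was possible because both libraries belong to the same group. The count of 0 differing members was 1 (Zscan10) at 1.5-fold and 0 under the other settings tried, the GC correction included. Over all genes 165 differed, beside 38 with the GC correction, and the looser 1.5-fold rule gave 1031 and the stricter 3-fold rule 24. At 1.5-fold with the correction, a pair of choices added after seeing the data, it was 130. The Zscan4 sum of 11.8 CPM was 5.20 CPM over the 3 listed members and 9.58 CPM over protein-coding copies, which sum fewer genes. The log2 ratio of Dppa2 reversed from -0.19 to 0.0603 with the GC correction, and the cause of the GC trend was not tested. Detected members numbered 8 at 0.5 CPM, and 5 at 2 CPM or at 1 CPM per kb. With each library alone, 7 (KO2) or 8 (KO1) members were detected and the Zscan4 sum was 10.2 to 13.3 CPM. Levels per kb of 7 members rose by more than 1 SD with 50-base or 100-base words or coding length, the last 2 added after seeing the data. DESeq2 size factors were both 1 and moved 3 of 8 log2 ratios, with no change of direction. Depth limits Dppa3 and the 3 Zscan4 members, at 50 to 144 counts per library, and the other Zscan4 copies, which go down to 13.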

Other observations

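Khdc3, a member of the KHDC1, DPPA5, ECAT1 and OOEP family, was the 1 gene of the lists with 50 or more counts whose whole interval lay beyond 1.5-fold after the GC correction, at a log2 ratio (KO2 over KO1) of -0.77 beside -0.15 before it. Its counts were 908 (KO1) and 786 (KO2). Its transcript has a GC content of 57.9%. It was singled out after its values were seen. Over all 15603 genes 0.833% had a whole interval beyond 1.5-fold after the correction (0.602% higher and 0.231% lower in KO2). Beside that share, 1 gene over all lists says little.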
